A study of Mus musculus with 12 samples.

Results

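Unmodified NIH-3T3 cells, an immortalised line of mouse embryonic fibroblasts, were profiled on 4 Illumina mouse bead arrays after 24 hours in medium with lipoprotein-deficient serum. These WT arrays, labelled as biological replicates 1 to 4 and chosen by their titles, are 4 of the 12 arrays of a series on the small nucleolar RNA U17, in which transcripts were sought whose level depends on it. The other 8 arrays come from a stable clone labelled as a U17 knockdown (ShSnhg3) and a stable clone labelled as overexpressing U17 (pMDβglobinU17b), and they are not compared here. All cells of the series were in the same serum, so no array shows these fibroblasts with lipoproteins, and the levels below are a description of 1 state. Nothing in the labels says whether the 4 WT replicates were grown on separate days, so the SD over them may be partly technical.

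Fibroblasts build and remodel connective tissue: they secrete collagens, proteoglycans and the enzymes that cut them, and pull on this matrix through integrins and actin fibres. Serum without lipoproteins withdraws the usual outside source of cholesterol. In that state the SREBP transcription factors, which are held in the endoplasmic reticulum by INSIG proteins while sterol is plentiful, are released by SCAP to the Golgi, are cut by the proteases of the Mbtps1 and Mbtps2 genes, and turn on sterol synthesis and uptake genes.

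Values are the authors' normalized probe intensity on a linear scale with background subtracted, averaged over about 45 beads (the median per probe was 44 or 45 on each array). Each gene is given by its brightest probe, and ± stands for the SD over the 4 arrays (n = 4). A gene was called detected where at least 1 of its probes had a detection p-value under 0.01 on all 4 arrays, and not detected where every probe had 0.05 or more on all 4. The detection p-value compares a probe with background on its own array. Genes in neither class are called borderline. By this rule 7313 of 19057 named genes were detected (38.4%), 9386 were not (49.3%) and 2358 were borderline (12.4%). The detected genes had a median intensity of 610.5, with quartiles of 230.0 and 1713, and ranged between 58.8 and 61677. The CV over the arrays had a median of 9.02% for these genes, against a bead standard error with a median of 4.42% of the signal.

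Neither brightness nor a missing signal can be read directly as an amount of RNA. The brightest probe of Fdps averaged 25031 and its other probe, also detected, averaged 702. Of 6 probes of Acta2, 4 were detected with means between 2787 and 27359.8 and 2 were not detected. Over the whole array 2560 genes had both a detected and an undetected probe. As a further check, 4 complexes that every dividing cell uses were examined: proteasome subunits, RNA polymerase II subunits, cytosolic aminoacyl-tRNA synthetases and the TCP1 chaperonin. These lists were chosen after the data had been seen. Of their 66 measured genes 54 were detected (81.8%), 3 were borderline and 9 were not detected (13.6%), among them Psma1, Psma3, Polr2c, Cct5 and Cct7. A gene without signal may therefore have a poor probe, and the order of signals between genes is an order of probes.

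The 4 arrays were close to each other. Over the detected genes the correlation of log2 intensity was between 0.990 and 0.995 for the 6 pairs. Between 13007 and 13691 probes per array had a detection p-value under 0.01. Replicate 4 had the lowest signal before normalization, with an upper quartile of 71.6 against 88.5 to 95.2 on the others. Replicate 2 lay furthest from its group: the SD of its differences from the mean of the other arrays was 0.24 in log2 units, and replicates 1, 3 and 4 had 0.17 to 0.18.

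The brightest signals included those of the machinery of protein synthesis, of H2A histones, of the cytoskeleton and of a secreted hormone family. Of the 40 brightest genes 16 encode cytosolic ribosomal proteins, led by Rplp1 (56049, 65939.8, 61423 and 63294 on replicates 1 to 4) and Rps2 (59243 ± 2245), and 2 encode elongation factors, Eef1a1 (58408 ± 2642) and Eef1g (56773 ± 3584). Tuba1b and Tubb5, which encode tubulins, had 60686 ± 4443 and 56341 ± 2585, and Actb, which encodes the cytoplasmic beta actin, had 52601 ± 2618. All 4 arrays lay near each other for each of these genes, with CVs between 3.79% (Rps2) and 7.32% (Tuba1b). The other 14 ribosomal protein genes ranged between 35854 (Rpl3) and 57368 (Rps12) and were Rpl38, Rpl9, Rps9, Rpl41, Rps29, Rps6, Rps4x, Rps19, Rpl37, Rpl35, Rpl23 and Rps24 besides. The other leading genes have varied roles. Mif encodes a cytokine kept in the cytoplasm of many cells (58618 ± 3279.8), Ybx1 a protein that packages messenger RNA (57580.2 ± 1338), Atp5b a subunit of the mitochondrial ATP synthase (57333 ± 1341), Fth1 the heavy chain of ferritin, the iron store (56711 ± 1409.5), and Ppia cyclophilin A, a prolyl isomerase (53339.6 ± 2759). Cd63, a tetraspanin of late endosomes, had 36104 ± 2501, Nme2, a nucleoside diphosphate kinase, 35658 ± 2355, and CYTB, the cytochrome b gene of the mitochondrial genome, 41150.5 ± 1592. Of the 40 genes 5 are H2A histone genes (H2ac24, H2ac20, H2ac10, H2ac13 and H2ac7), with means between 39371 and 47911. They are near-identical copies, so that their probes may share target RNA. Ubb-ps, annotated as a ubiquitin pseudogene, had 37436 ± 1206. In all, 255 genes were above 10000, and 38 of them encode ribosomal proteins, out of 52 such genes among the 7313 detected. The 40 brightest together held 13.1% of the summed signal of detected genes.

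Proliferins were among the brightest secreted products. Proliferin was named after its discovery in serum-stimulated 3T3 cells and belongs to the prolactin family, whose other members are mostly made by the placenta. Prl2c3 had 45918, 45297, 50128 and 47478 on the 4 arrays, Prl2c2 had 37665, 34461, 39293 and 37219 and Prl2c4 had 33158, 31358, 35689 and 33262. For all 3, replicate 3 was the highest and replicate 2 the lowest. These genes are near-identical copies, so which copies were expressed cannot be told apart with certainty. Of the 24 measured members of the family, a list added after the data had been seen, 3 were detected (12.5%, against 38.4% of all named genes). Prl2c1 was borderline and 20 were not detected, Prl itself among them.

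Metallothioneins, small proteins that bind zinc and copper, were present by 2 of 4 members (50%, against 38.4% of all named genes). Mt1 had 44469, 49696, 45884 and 47328 and Mt2 289, 259, 281 and 345, whereas Mt3 and Mt4, known from brain and from stratified epithelium, were not detected. Ldha, the lactate dehydrogenase subunit of glycolytic cells, had 31054 ± 1426, with Ldhb borderline (41.7 ± 7.86) and Ldhc, known from the testis, not detected. Slc2a1, the basal glucose transporter, had 9111 ± 701, and Slc2a4, the insulin-responsive transporter of fat and muscle, was not detected.

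Sterol synthesis genes were widely detected. Of the 17 measured genes of the pathway 15 were detected (88.2%), against 38.4% of all named genes. The mevalonate arm makes farnesyl diphosphate from acetyl-CoA. Its genes Mvk (249, 223, 221 and 256) and Pmvk (373, 467, 350.4 and 343), the kinases, and Mvd (1802, 1801, 1569 and 1744), the decarboxylase, were detected on every array. Fdps, farnesyl diphosphate synthase, had 23399.8, 25829.6, 26343 and 24551. Replicate 2 was the highest for Pmvk and the CV of the other genes lay between 5.29% (Fdps) and 7.53% (Mvk). Idi1, the isomerase, and Ggps1, which branches to geranylgeranyl diphosphate, were not detected.

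All 11 measured genes that lead from squalene to cholesterol were detected. Sqle, the epoxidase that is a second control point of the pathway, had 9589, 12559, 9975 and 10135, with replicate 2 above the other arrays. Its probe with the next highest mean showed the same, with 3566, 4944, 4245 and 4331, and the remaining probe was not detected. Msmo1, which removes methyl groups at carbon 4, had 8292, 8285, 8377 and 7571, and Cyp51, the lanosterol demethylase, had 6255, 6415, 7199 and 6412. Nsdhl, which acts with Msmo1, was detected by all 4 of its probes, the brightest at 4439.8 ± 220.4. Lss, lanosterol synthase, had 1939 ± 269 at 1 of 3 probes, and Hsd17b7, a ketoreductase of the same demethylation steps, 3198 ± 276 at 1 of 2. Ebp, a sterol isomerase, had 1059 ± 133. The signals of Sc5d (222 ± 29.9), Dhcr7 (108 ± 17.2) and Tm7sf2 (107 ± 10.9), a desaturase and a pair of reductases, were below the lower quartile of detected genes. Lbr (4188 ± 327) encodes a protein of the inner nuclear membrane that has the same reductase activity as Tm7sf2.

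**Figure D1:**
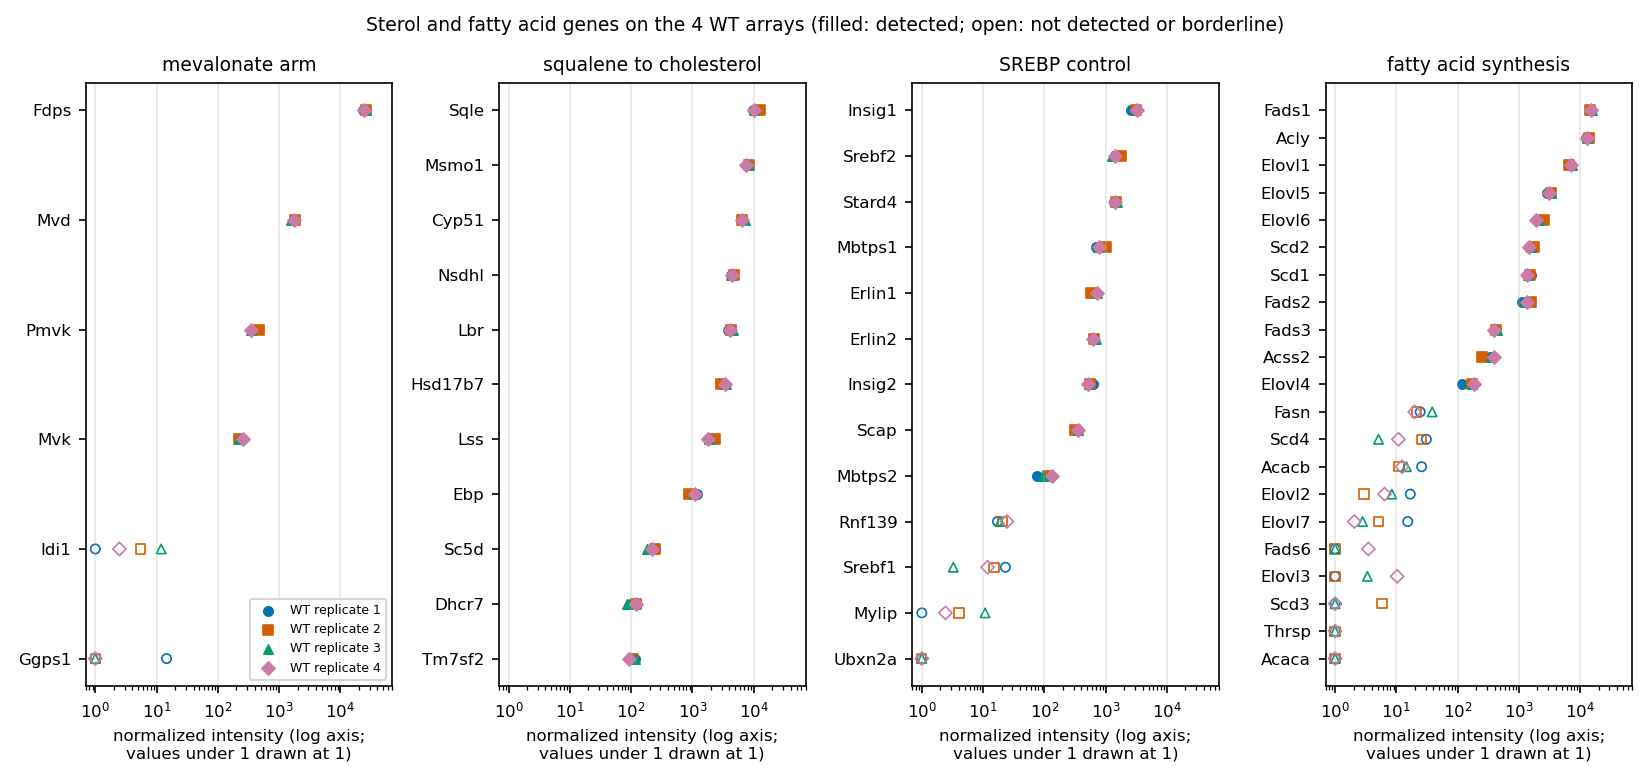
Normalized intensity of genes of the mevalonate arm, of squalene to cholesterol, of SREBP control and of fatty acid synthesis, with 1 marker for each of the 4 WT arrays on a log axis and values under 1 drawn at 1. Filled markers are genes detected on all arrays and open markers are genes that were not detected or borderline. All 11 measured genes from squalene to cholesterol are filled, and the 4 arrays of each filled gene lie close together.

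The sequences upstream of these genes share a short element. SREBP factors are weak activators alone and are known to act with NF-Y, which binds the letters CCAAT. In the 250 bases before the RefSeq start sites (GRCm38.p6), CCAAT stood on either strand in 16 of the 17 sterol synthesis genes that have a window, Acat2 being the exception. These are not the 17 genes measured: Fdps and Sqle were not searched, and list members that were not analysed on the arrays, such as Acat2 and Hmgcs1, are included. Of the 13 that were also detected 13 held CCAAT, 12 CCGCCC, 3 CACGTG and 0 TCACNCCAC, of the motifs spelled out next. Of all 27025 genes with a window 37.5% held CCAAT. So did 41.6% of the 6028 genes with a window that were detected here, and 37.5% of the 7340 with a window that were not detected. Of 3 other motifs searched on both strands, CCGCCC, the core of Sp1 sites, was in 15 of the 17 genes (35.4% of all genes and 67.9% of the detected ones). CACGTG, the E-box, was in 3 (6.86% of all genes and 10.8% of the detected ones), and TCACNCCAC, a form of the sterol regulatory element, was in 1, Hmgcs1 (1.22% of all). No motif contains another. The motifs, and the genes shown, were chosen after trial searches. A match says only that these letters are present. The 150 bases before the start of the 4 brightest detected genes of the pathway that have a window are given 5′ to 3′ on the gene's strand, to show how the element lies, with CCAAT and its reverse complement in capitals. They lie at chr8:64733579-64733728 (Msmo1, minus strand), chr5:4104698-4104847 (Cyp51, minus strand), chrX:72918371-72918520 (Nsdhl, plus strand) and chr1:181842402-181842551 (Lbr, minus strand).
Msmo1: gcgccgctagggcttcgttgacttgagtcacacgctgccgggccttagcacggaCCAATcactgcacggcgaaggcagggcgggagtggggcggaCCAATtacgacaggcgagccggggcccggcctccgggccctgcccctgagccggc
Cyp51: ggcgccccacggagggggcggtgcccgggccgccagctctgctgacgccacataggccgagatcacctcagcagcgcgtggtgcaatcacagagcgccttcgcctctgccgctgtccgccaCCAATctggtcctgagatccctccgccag
Nsdhl: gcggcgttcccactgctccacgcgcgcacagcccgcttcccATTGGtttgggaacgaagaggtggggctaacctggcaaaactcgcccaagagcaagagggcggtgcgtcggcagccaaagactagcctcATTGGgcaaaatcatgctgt
Lbr: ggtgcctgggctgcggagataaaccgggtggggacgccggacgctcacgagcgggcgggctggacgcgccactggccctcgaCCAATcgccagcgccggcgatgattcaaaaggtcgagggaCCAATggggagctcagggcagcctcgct
Msmo1, Nsdhl and Lbr hold 2 copies in this stretch and Cyp51 holds 1. In Msmo1 and Lbr both copies read CCAAT on the gene's strand, and in Nsdhl both read ATTGG.

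Of 13 measured genes that control the pathway 9 were detected (69.2%, against 38.4% of all named genes). Srebf2, which encodes the SREBP of sterol synthesis, had 1407, 1761, 1283 and 1423, and both of its probes were detected. Srebf1, the form tied more to fatty acids, was not detected by either probe (23.1, 15.1, 3.26 and 11.8). Scap, the escort, had 343 ± 20.5, Mbtps1, the first protease, 815 ± 142, and Mbtps2, the second, 105 ± 25.1. Insig1, itself an SREBP target, had 2621, 3085, 3026 and 3256 and was detected by 3 of 4 probes, while Insig2 had 557 ± 43.2 at 1 of 3. Stard4, a sterol carrier induced by SREBP, had 1442 ± 68.6, and Erlin1 and Erlin2, which are membrane proteins of the endoplasmic reticulum, had 670.3 ± 69.5 and 637 ± 33.4. Mylip, an LXR-induced ubiquitin ligase, Rnf139 and Ubxn2a were not detected.

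Fatty acid genes were detected for 11 of 21 (52.4%, against 38.4% of all named genes). Fads1, the delta-5 desaturase, had 14834, 14614, 15572 and 15196 and Acly, which makes cytosolic acetyl-CoA from citrate, had 12568, 13813, 12684 and 12692. The elongases Elovl1 (7013 ± 370.4), Elovl5 (3145 ± 234) and Elovl6 (2165 ± 269.6) and the stearoyl-CoA desaturases Scd2 (1552 ± 137) and Scd1 (1475 ± 104) were present, as was Fads2, the delta-6 desaturase (1325 ± 190.2). Fads3 (422 ± 18.8), Elovl4 (161 ± 28.8) and Acss2, which makes acetyl-CoA from acetate (330.4 ± 56.4), had lower signals. Fasn, fatty acid synthase, was borderline at its only probe (24.5, 21.3, 38.5 and 19.9), and Acaca, the carboxylase that feeds it, was not detected. Scd3, Elovl2, Elovl3, Elovl7 and Thrsp, genes known from skin, testis or liver, were not detected.

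Of 18 measured lipoprotein receptors and adaptors 10 were detected (55.6%, against 38.4% of all named genes), 5 were borderline and 3 were not detected. Lrp10 had 6174 ± 583 and Lrpap1, the chaperone of this receptor family, 2373 ± 53.5. Lrp8, the reelin and apolipoprotein E receptor 2, had 965 ± 79.8 and was detected by 4 of 5 probes, and Vldlr, the VLDL receptor, had 156 ± 28.9 at 3 of 6. Lrp1 (89.4 ± 24.1) and the Wnt coreceptor Lrp6 (77.4 ± 13.2) were just above background. Scarb2, a lysosomal membrane protein, had 316 ± 20.8 and Sort1, sortilin, 168 ± 26.4. Scarb1, the HDL receptor, was borderline and uneven, with 60.3, 116, 58.4 and 59.5, replicate 2 being the highest. Cd36 was not detected. Stab1, a scavenger receptor known from sinusoidal endothelium and macrophages, had 7485 ± 238 at 1 probe, while its other 2 probes were not detected. Of 15 measured apolipoprotein genes and relatives 1, the receptor gene Apobr (293 ± 29.2), was detected (6.67%, against 38.4%). Apoe was borderline (36.4, 49.2, 30.8 and 46.5), and Apoa1 and Apob were not detected.

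Genes for moving cholesterol inside the cell were detected in part and those for exporting it were not detected or borderline. Npc1 (2729, 2725, 2823 and 2684) and Npc2 (312, 274, 306 and 312), which carry cholesterol out of lysosomes, were detected, although 5 of the 7 Npc1 probes were not. Nceh1, a cholesteryl ester hydrolase, had 2511 ± 282, Lipa, the lysosomal lipase, 184 ± 20.7, and the START domain carriers Stard3 and Stard5 had 506 ± 42.6 and 428 ± 49.2. Gramd1b and Osbp, sterol transfer proteins, had 209 ± 13.1 and 81.2 ± 10.9. Cav1 and Cavin1, which shape caveolae, had 2799 ± 384 and 963 ± 93.3. The efflux transporters Abca1, Abcg1, Abcg5 and Abcg8 and the oxysterol receptor Nr1h3 were not detected, the transporter Abcg4 was borderline, and Nr1h2, Soat1 and Soat2 were not analysed here. Of 17 measured steroid and oxysterol genes 2 were detected (11.8%, against 38.4% of all named genes): Tspo, the translocator protein of mitochondria (5005 ± 256, 3 of 3 probes), and Hsd3b7 (1416 ± 41.6, 2 of 2 probes). Star, Cyp11a1, Cyp17a1, Cyp7a1, Cyp27a1, Cyp46a1 and Ch25h were not detected.

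Markers of fibroblasts were mostly detected and markers of other lineages mostly were not. Of 31 measured fibroblast and mesenchyme genes 25 were detected (80.6%), 1 was borderline and 5 were not detected. Vim, the intermediate filament vimentin, had 35398 ± 2368, P4hb, a subunit of collagen prolyl hydroxylase, 18070.4 ± 1584, Fn1, fibronectin, 7753 ± 1408 and Thy1, a surface glycoprotein, 3984 ± 329. Fbln2, a matrix glycoprotein, had 8896 ± 1824, Loxl1, which crosslinks elastin, 5656 ± 315, and Sparc, a collagen-binding protein, 4344 ± 179. The mesenchymal transcription factors Twist2 (5604 ± 269.9), Prrx1 (2224 ± 96.0), Twist1 (688 ± 70.5), Snai1 (357 ± 48.5) and Snai2 (236 ± 30.0) were detected. Postn, Fap, Col5a2, Pi16 and Dpp4 were not. Of the contractile list 6 of 16 were detected (37.5%, near the 38.4% of all named genes), with 4 of 6 probes of Acta2, the actin of smooth muscle and myofibroblasts (28129.9, 28541, 26435 and 26333), against Cnn1, Myh11, Lmod1, Synpo2 and Pln that were not detected and Tagln and Des that were borderline.

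Over the 11 lists of other lineages 20 of 227 measured markers were detected (8.81%, against 38.4% of all named genes). A further 35 were borderline and 172 were not detected (75.8%, against 49.3% of all named genes). The detected ones include Tfrc, the transferrin receptor (6143 ± 1142), Pnpla2, the adipose triglyceride lipase (1401 ± 73.6), Lpl, lipoprotein lipase (719 ± 94.4), Ncam1 (488 ± 58.0), Slc1a3, a glutamate transporter (937 ± 90.6), and Klf4 (566 ± 15.8). Defining markers were not detected for adipocytes (Pparg, Cebpa, Fabp4, Adipoq, Plin1), skeletal muscle (Myod1, Myf5, Ckm), endothelium (Pecam1, Cdh5, Tek, Vwf), macrophages (Ptprc, Adgre1, Itgam, Lyz2), T cells (Cd3e, Cd4, Cd8a), liver (Alb, Afp, Ttr) and pluripotent cells (Nanog, Sox2, Zfp42). Of 21 endothelial markers 2 were detected, Flt1, a VEGF receptor (218, 194, 241 and 254), and Egfl7, a secreted vessel factor (227, 198, 181 and 199). Plin4 (143 ± 5.91), of fat, Mef2c (265 ± 17.7) and Tnnc1 (95.2 ± 11.1), of muscle, Sox5 (275 ± 32.4), of cartilage, and Map2 (133 ± 8.59), of neurons, were also detected. In epithelium Epcam and Krt5 were not detected, Cdh1 was borderline (39.6 ± 3.95) and Krt14 was detected just above background (69.7 ± 11.9). Of the hepatocyte list 0 of 19 were detected. With a detection p-value under 0.05 these counts were higher for 4 of the lists by over 1.5 times: epithelium had 5 detected, cartilage and bone 4, and hepatocytes and pluripotent cells 2 each.

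**Figure D2:**
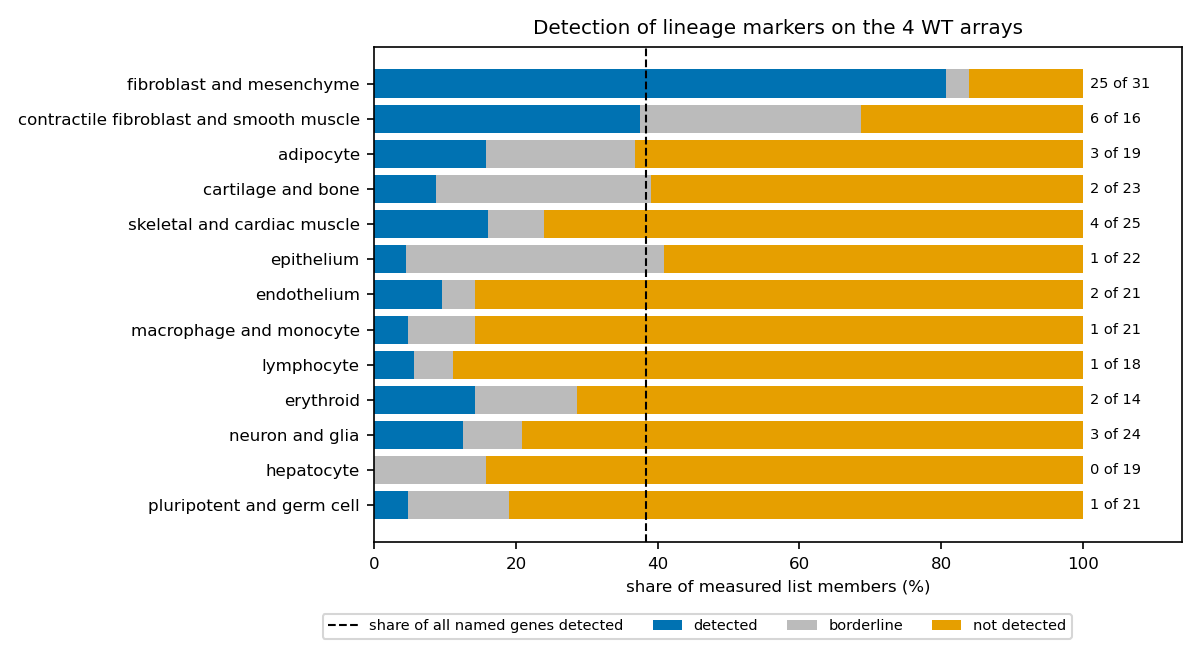
Share of measured members of each lineage list that were detected, borderline or not detected on the 4 WT arrays, in percent, with the number detected at the right and the share of all named genes detected (38.4%) as a dashed line. The fibroblast list reaches 80.6%, and each list of another lineage lies below the dashed line.

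A few markers of other lineages gave strong signals. Sox9, the master factor of cartilage, had 16506, 15110.1, 16101 and 14887 at its brightest probe and was detected by its other probe too (mean 418), while its cartilage targets Acan, Comp, Col11a1 and Matn1 were not detected and Col2a1 was borderline (25.5 ± 15.9). Cd8b1, a T cell coreceptor, had 2341, 2837, 2205 and 2139.6 at 1 probe, but its other 2 probes and the probes of Cd8a, Cd3e and Cd4 were not detected. Hbb-bh1, an embryonic globin, had 457, 403, 445 and 550.0 at 1 of 2 probes, and Gata1, Klf1 and Alas2 were not detected. Cd14, a coreceptor of lipopolysaccharide, had 445 ± 42.7, beside Tlr4 (447 ± 48.6, 2 of 3 probes) and Tlr2 (163 ± 20.8), and Toll-like receptors were otherwise not detected except for the borderline Tlr6. Nkx2-5, a cardiac factor, had 146 ± 29.2 at its only probe. Where 1 probe of several gave the signal, whether it measured the named gene was not tested.

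Among collagens 13 of 41 measured genes were detected, 8 were borderline and 20 were not detected, a share (31.7%) below that of all named genes (38.4%). Col6a1, of the beaded filaments, had 3283 ± 433, Col5a1, of the fibrils, 2705 ± 285, Col16a1, a fibril-associated collagen, 2059 ± 234, and Col4a1 and Col4a2, of basement membranes, 1745 ± 317 and 1699 ± 255. Col1a1 had 1829.6, 1486, 1142 and 1855, its partner Col1a2 was near the lower end of detected signals (79.1 ± 6.66), and Col3a1 was borderline (47.3 ± 11.7). Of the small leucine-rich proteoglycans, Bgn, biglycan, was among the 40 brightest genes (37898, 39869, 35424 and 31559.5), Dcn, decorin, had 4252 ± 259 and Lum 119 ± 14.6, and Fmod, Aspn, Kera, Omd and Epyc were not detected. Thbs2, an antiangiogenic thrombospondin, had 5820.0 ± 229, and Thbs4 and Comp were not detected. Of 9 measured laminin chains 2 were detected (22.2%, against 38.4% of all named genes), Lamc1 (1266 ± 72.3) and Lamb2 (443 ± 37.0).

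Of 20 measured matrix metalloproteases 5 were detected (25%, against 38.4% of all named genes). Mmp2, a gelatinase, had 9474 ± 1072 and Mmp14, the membrane protease that activates it, 7504 ± 708, while Mmp3, Mmp10, Mmp12 and Mmp13 were not detected and Mmp9 was borderline. The inhibitors Timp1 (9803 ± 467), Timp2 (6637 ± 572) and Timp3 (849 ± 102) were detected and Timp4 was not. Of 25 measured integrins 6 were detected (24%, against 38.4%). They were Itga5 (583 ± 44.2) and Itgb1 (426 ± 119.5), the chains of the fibronectin receptor, Itgav (203 ± 49.1) and Itgb5 (210.2 ± 17.3), of vitronectin receptors, Itga3 (498 ± 49.2), and Itgb7 (606 ± 54.2), known from lymphocytes. Of 19 cadherins 0 were detected on all arrays, against 38.4% of all named genes, with Cdh2 (49.0 ± 16.5), Cdh11 (14.7 ± 21.0) and Cdh1 borderline. With a detection p-value under 0.05 on all arrays, 2 cadherins were detected, Cdh1 and Cdh2.

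Cytoskeletal families were present in part. Of 5 measured actins 4 were detected (80%, against 38.4% of all named genes). Actb and Acta2 had strong signals, Actg2 (127 ± 19.1) and Acta1 (117 ± 26.8) were near the lower end, and Actc1, the cardiac form, was not detected. All 4 tropomyosins were detected (Tpm4 11820.2 ± 672, Tpm3 4933 ± 172, Tpm1 4026 ± 401, Tpm2 1901 ± 163). Of 17 tubulins 11 were detected (64.7%). Tubb4b (7521 ± 399) and Tuba1a (4846 ± 262) came next after the brightest pair, and the neuronal Tubb3 and the platelet form Tubb1 were not detected. Annexins, which bind membranes when calcium rises, were detected for 8 of 12 (66.7%), led by Anxa2 (37052 ± 2933), Anxa5 (17805 ± 469.5) and Anxa3 (16642 ± 602). S100a10, the partner of Anxa2, had 630.2 ± 92.2, and S100a11 had 30188 ± 2185. Among galectins, Lgals1 had 34678 ± 2592 and Lgals3 19839.7 ± 512, while Lgals2 and Lgals12 were not detected.

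**Figure D3:**
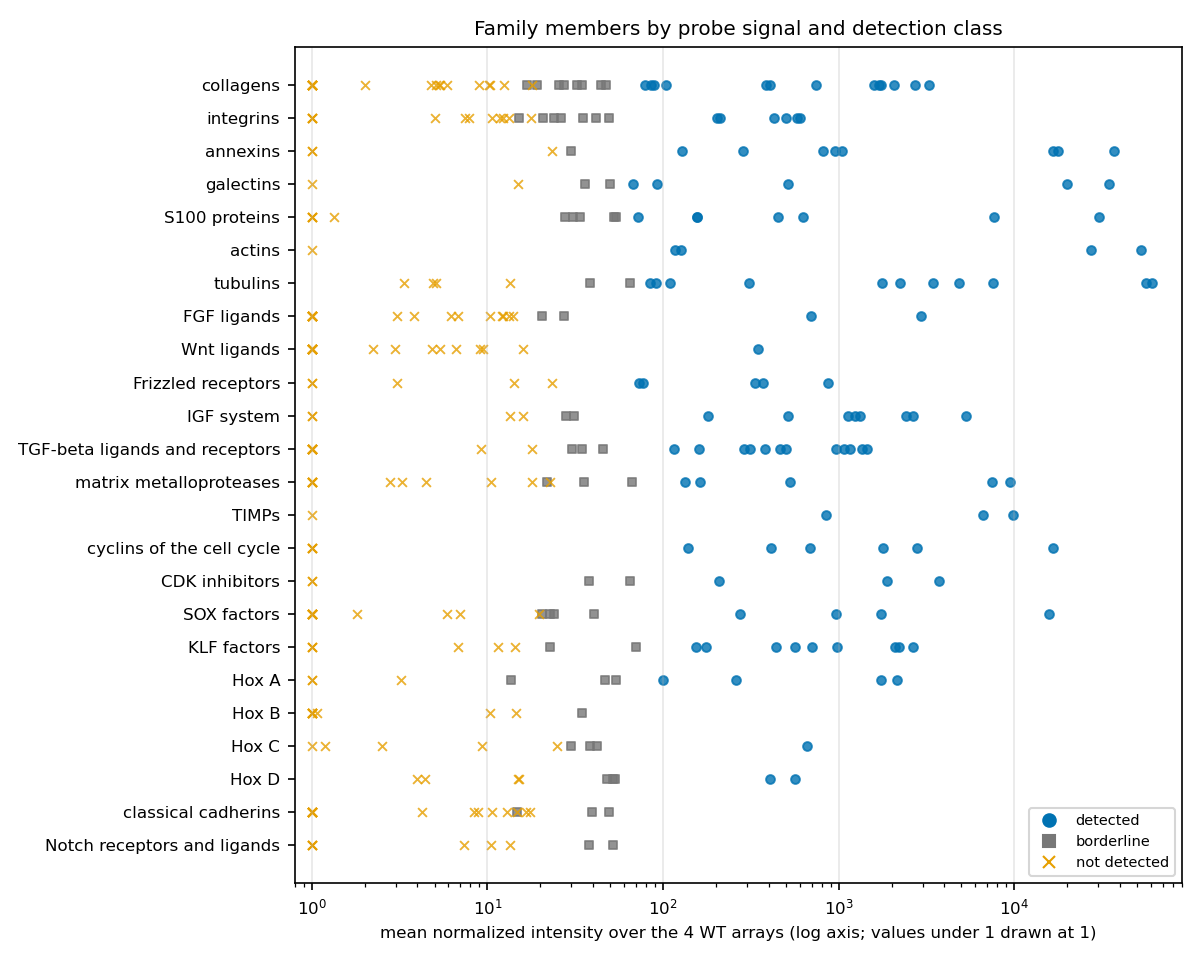
Mean normalized intensity over the 4 WT arrays (log axis) of each measured member of 24 gene families, with circles for detected, squares for borderline and crosses for not detected members. Detected members of the Wnt and FGF ligand families number 1 and 2, and the cadherins and the Notch family have none.

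Against 38.4% of all named genes, few FGF and Wnt ligands were detected, while their receptors and the PDGF, IGF and TGF-beta systems lay above that share. Of 22 FGF ligands 2 were detected (9.09%), Fgf7 (3097, 2130.1, 3451 and 3161) and Fgf10 (631, 685, 778 and 692), which both act on the epithelial form of Fgfr2 and are typical products of mesenchyme. Replicate 2 was the lowest for Fgf7. Of 5 measured FGF receptors and relatives 3 were detected (60.0%). Among them Fgfr2 had 1322 ± 49.2 at 2 of 4 probes and Fgfr1 299.6 ± 61.8, and Fgfr3 and Fgfr4 were not detected. Of 19 Wnt ligands Wnt5a alone was detected (332, 414, 344 and 307, 2 of 3 probes), beside 5 of 10 Frizzled receptors (50%), with Fzd5 at 864 ± 86.2, Fzd2 at 372 ± 33.7 and Fzd7 at 334 ± 64.4. Of 6 PDGF ligands and receptors 4 were detected (66.7%). Pdgfa had 2157 ± 166, its receptor Pdgfra 719.9 ± 36.9 and Pdgfrb 127 ± 22.2. The IGF system was detected for 8 of 14 (57.1%). Igf2, the imprinted growth factor, had 2779, 2670.4, 2699.5 and 2429 and its clearance receptor Igf2r 2431 ± 85.4, with Igf1r at 1131 ± 90.7, Igf1 borderline and Igfbp6 the binding protein with the strongest signal (5286 ± 439.5). Of 25 measured genes of the TGF-beta and BMP system 12 were detected (48.0%), among them Tgfbr1 (1067 ± 92.1), Tgfbr2 (1449 ± 89.3), Tgfbr3 (1161 ± 105) and Inhba (967 ± 37.4), which encodes the subunit of activin A. Egfr was borderline, with 0 of 6 probes detected, and Erbb2 had 282 ± 41.4. Notch receptors and ligands were detected for 0 of 9, and for 1 with a detection p-value under 0.05.

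Of 38 measured Hox genes, which record position along the body, 7 were detected (18.4%, against 38.4% of all named genes), 10 were borderline and 21 were not detected (55.3%, against 49.3%). In the A cluster Hoxa5 had 2146, 2102, 2267 and 2023, Hoxa7 1854, 1535, 1685 and 1864, Hoxa2 259.5 ± 38.6 and Hoxa13 101 ± 12.2, the last at 1 of 3 probes. The C cluster gave Hoxc6 (659 ± 28.2) and the D cluster Hoxd8 (560.4 ± 69.6) and Hoxd9 (407 ± 43.2), and 4 D genes were detected with a detection p-value under 0.05. Of the 10 measured genes of the B cluster 0 were detected and Hoxb2 was borderline. Among KLF factors 9 of 17 were detected (52.9%, against 38.4%), led by Klf9 (2655 ± 254), Klf5 (2209 ± 136) and Klf6 (2099.6 ± 296). Tead2 (2652 ± 271), Tead1 (1101 ± 239) and Tead4 (550.0 ± 39.5), with their coactivators Yap1 (790.4 ± 149) and Wwtr1 (567 ± 75.8), were detected, and Tead3 was borderline. Of the GATA factors Gata2 (322 ± 3.87) and Gata6 (233 ± 57.2) were detected.

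Genes of a dividing cell were widely detected. Ccnd1, cyclin D1, had 15757, 18118, 16342 and 15990.0, with all 3 of its probes detected, and Ccnd3 (2806 ± 97.2), Ccnd2 (1785 ± 93.1), Ccne1 (684 ± 14.6) and Ccne2 (409.7 ± 84.4) were also present. Ccna2 and Ccnb2 were not detected at their only probes. Of 24 measured S and M phase genes, a list added after the data had been seen, 19 were detected (79.2%, against 38.4% of all named genes). Among them were the histone variant gene Cenpa (16145 ± 459), the replication helicase gene Mcm4 (13558 ± 879), Cdc20, the anaphase activator (8409 ± 115), and Cdk1, the mitotic kinase (3933 ± 479). The cyclins were detected for 6 of 10 (60%) and the CDK inhibitors for 3 of 7 (42.9%, near the share of all named genes). Of the CDK inhibitors Cdkn1a, the p53 target p21, had 3844, 3906, 3776 and 3338 and Cdkn2c, p18, had 1890.5 ± 48.5, each with all 3 probes detected, and Cdkn2d had 209 ± 19.1. Cdkn2a, which encodes p16 and ARF and is known to be deleted in NIH-3T3 cells, was borderline. It had 0 of 3 probes detected, its brightest at 44.5, 36.7, 26.5 and 43.7, and the neighbouring Cdkn2b was not detected. Mdm2, the p53 ligase, had 4679.5 ± 297, and Trp53 was not analysed here.

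Interleukins were detected for 3 of 25 (12%), CC chemokines for 5 of 19 (26.3%) and CXC chemokines for 2 of 14 (14.3%), against 38.4% of all named genes. The interleukins were Il15 (267 ± 18.1), Il34 (225 ± 26.9) and Il11 (172 ± 10.7), and Il6, Il1a, Il1b and Il33 were not detected. The chemokines Ccl7 (1882 ± 169.8), Cxcl1 (1288 ± 48.3), Cxcl12 (910.2 ± 39.7) and Ccl2 (381 ± 23.5), which draw monocytes, neutrophils and stem cells, were among the detected chemokines. Of the genes that tell the sex chromosomes apart, Xist, Eif2s3y, Kdm5d, Usp9y and Sry were not detected and Uty was borderline (45.4 ± 2.22), while the X-linked Eif2s3x (1675 ± 157) and Kdm6a (626 ± 45.3) were detected.

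A small number of genes differed between the WT arrays by more than the usual spread. Over the 5723 detected genes with a mean of at least 200 the SD of log2 intensity had a median of 0.12. The widest was ND5, of the mitochondrial genome, with 280.2, 162, 384 and 735 (SD 0.91), followed by Slc25a16, a mitochondrial carrier, with 162, 99.9, 262 and 281 (SD 0.69), and the splicing factor gene Prpf38b, with 240.3, 423, 284 and 172 (SD 0.54). Egr1 and Egr3, immediate early factors that serum and stress induce within minutes, had 1779.9, 1568, 2225 and 3369.9 and 187, 164, 292 and 325. Both were lowest in replicate 2 and highest in replicate 4. Of 18 measured immediate early genes, a list added after these data had been seen, 11 were detected (61.1%, against 38.4% of all named genes), and the strongest signals were those of Ier3 (10899, 9982, 11594 and 11023) and Ccn2 (8173, 7457, 7949.9 and 8446). The other genes of widest spread were Nxt2, an RNA export factor (884, 605, 1255 and 1153), Pank3, a coenzyme A synthesis kinase (392, 226, 474 and 338), Gm14325 (205, 123, 235 and 241), Met, the HGF receptor (129.8, 285, 227 and 222), and Hif1a, the oxygen-regulated factor (197, 417, 319 and 291). Met and Hif1a were highest in replicate 2 and lowest in replicate 1. Ranked on the signal before normalization, 3 of these 10 genes stayed among the 10 widest.

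**Figure D4:**
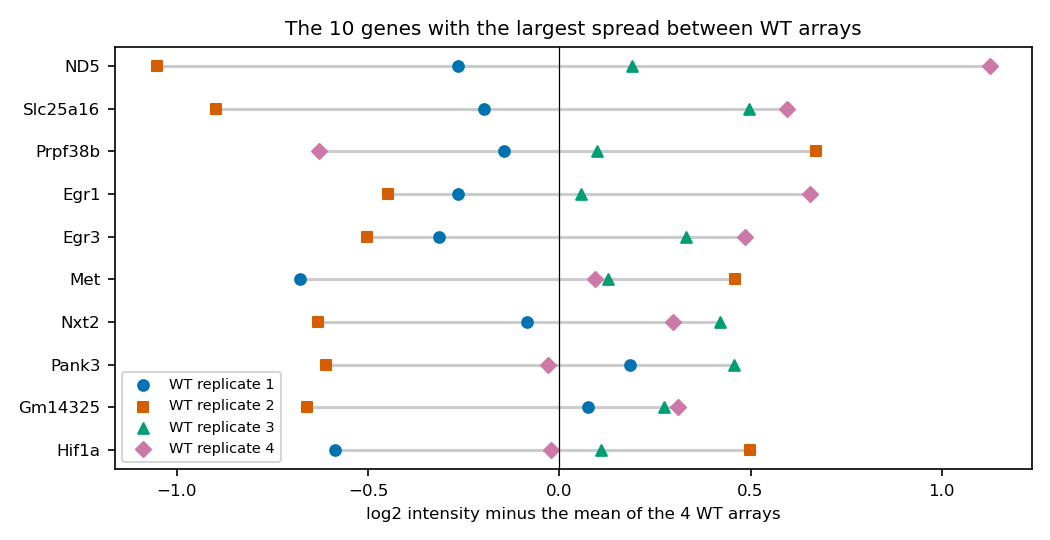
Log2 intensity of the 10 genes with the largest spread between WT arrays, drawn as the difference from the mean of the 4 arrays, with 1 marker per replicate and a grey line over their range. Replicates 2 and 4 hold most of the extremes, and the order of replicates differs between genes.

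The distance of replicate 2 was spread over many genes. Against the mean of the other arrays, 144 of the 7313 detected genes were higher and 185 lower in replicate 2 by over 0.5 on the log2 scale, against 22 to 53 higher and 46 to 56 lower for the other replicates. The 13 detected collagens had a median of 0.24 higher in replicate 2, and 7 of them were highest there, among them Col4a1 (1713, 2204, 1519 and 1546) and Col6a1 (3228, 3909.8, 3034 and 2960.2). Fn1 (7192, 9856, 6888 and 7074), Fbln2 (8505, 11579, 7811 and 7689) and Thbs1 (72.8, 164, 109 and 146) were also highest there, and Fgf7 and Lrp12 (667, 547, 897 and 817) lowest. Over all 5723 genes of intensity 200 or more, replicate 2 was the highest for 1824 and the lowest for 2051. Whether culture density, handling or the array differed for replicate 2 was not tested.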

How the data were processed

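The study measured RNA of NIH-3T3 cells on Illumina mouse bead arrays, and the 4 WT arrays were used. The authors deposited a table of normalized intensity per probe and a table, before normalization, of signal intensity, bead number, bead standard error and detection p-value; the units are those of the deposited headers. GenomeStudio 2010 is named, per the submitters' processing notes; how the values were normalized is not given in the sources used. About 37.7% of the deposited normalized intensity values on each array are below 0, as after background subtraction. The 8 clone columns of the normalized table were not used, nor were 32 of the 48 per-sample columns of the other table, whose names match no WT array. The signal of each column used was checked against the normalized WT replicate of the same number, and their rank correlation was 1 on each array.

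Of 45281 probes 34885 carry 1 gene symbol in the platform annotation, which is old, 18 carry several and 10378 are not listed; 34807 matched RefSeq by gene ID. Symbols are those of RefSeq, and 19057 genes had a probe. Genes, lists and thresholds were chosen with earlier results of these data known, and 7 lists were added to the 69 after the values had been seen. The rule for genes named with values covers the 40 brightest genes, detected sterol list members, the brightest detected members of other lists (up to 5) and those with split probes, and the 10 genes with the largest SD of log2 intensity among those with a mean of 200 or more; ribosomal protein and histone genes among the 40 are given as a range. Further members are named by class; where such a member has values, as with Thy1, Col1a2 or Snai1, it was chosen for its known role after its values were seen. Only 1 group is described, so no groups were tested, and lists are described by counts. Promoters (RefSeq, GRCm38.p6) were searched over 250 bases for 4 motifs, which were settled after a trial of further forms of the sterol element, and the length of 150 bases shown was set after a shorter one had been viewed. The detected class was tried on simulated data in which expressed genes were given p-values under the threshold, so their recovery was fixed in advance. Only the calls among simulated background genes could vary. The rule for genes with several probes and the other classes were not checked. Python 3.11.15, pandas 2.3.3, numpy 2.4.6 and matplotlib 3.10.9 were used. The number of arrays, 4, limits the precision.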

Additional observations from a re-analysis of the deposited data

Results flagged for a closer look

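The genes tested were the detected list members, the 40 brightest genes and the 10 with the largest SD of log2 intensity. Within the group of 4 WT arrays, 23 of these 410 genes had 1 array set apart from the rest, by a gap to its nearest neighbour that exceeded Dixon's 95% critical share of the range over the arrays. No array measure of the 6 tested did. Chance sets 1 array apart in about 5% of groups, which is near the share seen here, although the genes tested include some chosen for their wide spread. Of the 23 genes, 15 had replicate 2 apart, and 2, 2 and 4 had replicates 1, 3 and 4.

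Replicate 2 stood apart for Rpl9 (gap over range 0.983, 52700.1, 61349, 52845 and 52709), Itgb7 (0.936, 575, 687, 578 and 582), Top2a (0.927, 2814, 3721, 2851 and 2783), Klf3 (0.916, 158, 225, 159 and 164) and Acly (0.900, 12568, 13813, 12684 and 12692). It did so also for Fn1 (0.898), Cxcl1 (0.893), Scarb2 (0.868), Lpl (0.867), Slc2a8 (0.866), Bub1b (0.863), Tubb6 (0.862), P4hb (0.861), Slc2a10 (0.860) and Npc2 (0.852). Replicate 4 stood apart for Irs2 (0.928, 1266, 1261, 1270.1 and 1139.8), Kdm6a (0.889), Msmo1 (0.885, 8292, 8285, 8377 and 7571) and Psma7 (0.849). Replicate 1 did for Eef2 (0.882) and S100a10 (0.880), and replicate 3 for Cyp51 (0.831, 6255, 6415, 7199 and 6412) and Tlr2 (0.841). The cause was not tested.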

How the results depend on the processing

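The numbers of detected and undetected genes, the sterol synthesis count and the set of brightest genes moved by less than 1.5 times. This held under every alternative run that could change them. Detected genes numbered 6686 with a detection p-value under 0.001, 8027 under 0.05, 7584 with at least 3 of 4 arrays and 7310 by the brightest probe alone, and 7340 to 7450 when each replicate was left out. Undetected genes numbered 9386 to 10146, and 9495 to 9649 with a replicate left out. The 0.001 and 0.05 settings changed only the rule for detected genes, so the undetected count of 9386 was fixed in advance there. The sterol synthesis count was 14 under 0.001 and 15 otherwise. Of the 40 brightest genes 40 were shared on the signal before normalization and on log2 means, 39 to 40 with a replicate left out, and 28 when a gene was the mean of its detected probes. The 0.05 threshold raised the detected count of 31 of 69 lists, 10 of them beyond 1.5 times: apolipoproteins (to 3), cartilage and bone (4), epithelium (5), hepatocytes (2), pluripotent cells (2), X and Y linked genes (5), cadherins (2), Hox D (4), the Notch family (1) and lactate dehydrogenases (2), and the brightest probe alone moved 0 lists. The median SD of log2 intensity was 0.22 before normalization, against 0.13 after it, and 0.13 after adding 16, when 8 of the 10 widest genes were shared. No paired analysis was possible because only 1 group is described. Detection depends on the probe, so a gene called not detected may be expressed.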

Other observations

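All 4 measured peroxiredoxins, which remove hydrogen peroxide, were detected (Prdx1 21338 ± 1421, Prdx2 17381 ± 1572, Prdx4 11386 ± 299.7, Prdx3 2973 ± 244). Of 15 measured HSP70 and HSP90 genes 8 were detected (53.3%, against 38.4% of all named genes). Hspa8, the constitutive cytosolic HSP70, had 32846 ± 2096 and Hspa9, its mitochondrial relative, 18040.2 ± 1707, while the stress-induced Hspa1b had 101 ± 6.96 and Hspa1a was borderline. Hspa5, the abundant chaperone of the endoplasmic reticulum, was not detected at its probe (10.5, 8.89, 22.8 and 10.8). Of 13 intermediate filament genes other than keratins 4 were detected (30.8%), vimentin among them. The nuclear lamin genes Lmna (17094 ± 679.8), Lmnb1 (1667 ± 149) and Lmnb2 (949.8 ± 35.0) were detected, and the neurofilament genes Nefl and Nefm were not.

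Besides Sox9, the SOX factors Sox4 (1747 ± 92.5), Sox12 (961 ± 79.0) and Sox5 (275 ± 32.4) were detected, in all 4 of 20 measured (20%, against 38.4% of all named genes). Sox10, Sox17 and Sox18, of neural crest and endothelium, were not detected. The inhibitors of basic helix-loop-helix factors Id1 (781 ± 64.0), Id3 (168 ± 41.1) and Id2 (149.7 ± 16.5) were detected and Id4 was not. Gars, the glycyl-tRNA synthetase, had 29319.9 ± 2329, the strongest signal among the 17 detected synthetases. Of 10378 probes without a listed gene and 18 with several, 1607 were detected on all 4 arrays, and these were left unnamed.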
